A study of Mus musculus with 12 samples.

Results

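Interferon-stimulated antiviral genes encode the proteins with which a cell meets a virus, and 40 of them were followed here in BMDCs, cultures of dendritic cells derived from the marrow of mice. They were chosen by their symbols in the quantified gene names and were found in all 12 libraries. They make up 40 of the 55335 genes quantified, and all 40 passed the filter on low counts that left 14008 genes for testing. Type I interferon binds the receptor IFNAR1/IFNAR2, whose kinases start signalling to the nucleus. There ISGF3, a complex that contains STAT2 and IRF9, binds an element called the ISRE in the promoters of interferon-stimulated genes. The proteins made in response bind or degrade viral RNA, modify other proteins, trap virions or act as sensors, and in dendritic cells the program is also started by LPS, a bacterial cell wall component, through TLR4, its adaptor TRIF and interferon-beta.

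RNA was sequenced in biological triplicate from BMDCs of C57BL/6 mice, male and female and 8 to 12 weeks old, that carry the Cre-ER fusion at the Rosa26 locus. In the WT and WTL groups the Ctcf alleles are intact (CreER;CTCF wt/wt), and in the KO and KOL groups both carry loxP sites (CreER;CTCF fl/fl), so that 4-hydroxytamoxifen (4-OHT) leads to their deletion. Marrow was cultured with GM-CSF for 6 days, 4-OHT was used at 0.5 µM on day 1, and floating CD11c+ cells were selected with beads. WTL and KOL cells then received 100 ng/ml LPS for 3 h, and WT and KO cells were left unstimulated. The sources used here do not settle whether the wt/wt cultures also received 4-OHT, so what 4-OHT itself does and what loss of CTCF does cannot be told apart. They also do not say whether each replicate came from a mouse of its own, and p-values measure only the spread between these libraries.

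Each library held between 12769773 and 16586334 expected counts. Normalized counts, brought to a common library size, serve to compare libraries for 1 gene, whereas TPM, which divides by transcript length, serves to compare genes. The groups were compared with edgeR's quasi-likelihood test in 1 fit of the 12 libraries. A gene is said to have risen or fallen where its Benjamini-Hochberg adjusted p was under 0.05 and its fold change was above 2 for LPS against no LPS, above 1.3 for KO against WT or above 1.5 for KOL against WTL. The interaction, the log2 LPS response in KO cells minus that in WT cells, had no fold cutoff. The comparisons share libraries: WT is the control of both WTL and KO, and WTL, KO and KOL each enter a pair of comparisons and the interaction.

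Libraries differed in spread. Relative spread of replicates after removal of counting noise (edgeR's biological coefficient of variation) came to 4.64% in WT and 2.15% in KO but 13.1% in WTL and 13.5% in KOL. No replicates had identical counts, and every pair differed by more than sampling noise. WTL replicate 1 and KOL replicate 2 stood apart from their groups: over 9338 genes, the SD of a library's log2 deviation from its group mean was 0.225 and 0.242 in them and 0.14 to 0.163 in the other LPS libraries. Across genes, which are not independent replicates, the deviations of these libraries correlated with each other (r = 0.66). Other LPS libraries had correlations of similar size, WTL replicate 3 with KOL replicate 1 (r = 0.62) and WTL replicate 1 with KOL replicate 1 (r = -0.65). The deviations of WTL replicate 1 also correlated with gene length (r = 0.36) and GC content (r = -0.56) and those of KOL replicate 2 with length (r = 0.39) and GC content (r = -0.21). Correlations with length had the opposite sign in WTL replicate 3 (r = -0.36) and KOL replicate 3 (r = -0.39). Those with GC content were 0.42 in WTL replicate 2, 0.41 in WTL replicate 3 and 0.41 in KOL replicate 1. Deviations of 3 libraries from their own mean depend on each other, and the cause of these correlations was not tested. Of the 40 antiviral genes, 26 were above the group mean in WTL replicate 1 and 32 in KOL replicate 2. Uneven numbers were not particular to these libraries, with 31 in WT replicate 3, 4 in WT replicate 1 and 7 in KOL replicate 1. Because of the SDs of WTL replicate 1 and KOL replicate 2, counts are also given without both of them, an alternative chosen after seeing the data. Ribosomal RNA took 5.17% of the counts in WTL replicate 2, the next highest share being 1.18% in KOL replicate 3.

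Ctcf itself (ENSMUSG00000005698.15) checks the group labels. Normalized counts of Ctcf were 1051, 987 and 975 in WT, 886, 817 and 745 in WTL, 569.7, 562 and 516 in KO and 563, 530.0 and 526 in KOL. All KO libraries were below all WT libraries, and all KOL libraries were below all WTL libraries. The fitted KO level was 54.7% of WT (log2 fold change -0.87, SE 0.08) and the KOL level 66.3% of WTL (log2 fold change -0.59, SE 0.08). Reads from every exon enter an RSEM count, including any outside the deleted part, so the remaining count is not a measure of intact transcript. The KOL value lies close to the cutoff of 1.5 and was short of it without WTL replicate 1 (-0.53), KOL replicate 2 (-0.58) or KOL replicate 3 (-0.57), with WTL replicate 1 and KOL replicate 2 both left out (-0.52), in a fit of the 6 libraries alone (-0.56), without a filter on low counts (-0.58), with a filter of 10 counts (-0.58), and with limma on log2(TPM + 1) (-0.42) or log2(TPM + 0.1) (-0.45).

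The labelled cell type was checked against marker lists, by summed TPM. All 10 dendritic cell markers were detected above the filter, with Cd74, the MHC class II invariant chain, the most abundant, and their sums were 11478, 11714 and 11077 in WT, 10597, 12491 and 14342 in WTL, 7770.2, 8073 and 7867 in KO and 15229, 10590.1 and 12245 in KOL. The KO libraries had the lowest sums. In KO against WT, the MHC class II genes H2-Aa (-1.15) and H2-Ab1 (-0.76), Flt3 (-2.00) and Cd209a (-1.92) fell and Itgax, which encodes CD11c, rose (0.83), all as log2 fold changes. All 7 macrophage markers passed too, with Csf1r the most abundant, and summed to 520.4, 569 and 526 in WT, 279, 213 and 228 in WTL, 652, 668 and 680.4 in KO and 246, 290.5 and 251 in KOL. Csf1r carried these sums (351 ± 16.2 TPM in WT and 511 ± 9.04 TPM in KO, SD, n = 3), which were lower in the LPS libraries of both genotypes and higher in KO than in WT. The markers of the list did not move as one: in KO against WT, Csf1r (0.73), C1qa (1.27) and C1qc (0.81) rose and Adgre1 (-0.81) and Mertk (-1.16) fell on the log2 scale, and in KOL against KO, Adgre1 rose (1.10) while Csf1r fell (-2.04). Of 7 neutrophil markers, 5 passed, with S100a8 the most abundant, and the sums of the list were 389.8, 368 and 383 in WT, 423, 338 and 428 in WTL, 207, 224 and 192 in KO and 286, 336 and 324 in KOL. They were lower in KO than in WT. Of the 5 markers tested, 4 fell in KO against WT, S100a9 (-1.68) among them, and 0 rose, where 17.2% and 17.3% of all genes tested did. Of 6 plasmacytoid dendritic cell markers, 2 passed, and Siglech, Klk1 and Cox6a2 were under 1 TPM in every library. The sums, which Tcf4 led, were 8.97, 8.99 and 9.77 in WT, 38.2, 29.9 and 30.7 in WTL, 8.29, 8.34 and 6.83 in KO and 20.8, 25.1 and 18.6 in KOL, and those of the LPS libraries were the higher ones. The sums follow Tcf4, which fell in KO against WT (-0.92), while Ccr9 rose (2.38).

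Some markers also differed between the LPS groups. In KOL against WTL, 5 of the 10 dendritic cell markers fell (Ciita -0.81, Flt3 -0.59, Cd209a -1.28, Csf2ra -0.64 and Itgam -0.68). Of the macrophage markers in the same comparison, C1qa (1.82) and C1qc (1.39) rose and Mertk (-1.13) fell, and of the neutrophil markers 3 fell (S100a9 -0.94, Mpo -1.03 and Camp -2.20). Ccr9 (0.89), the NK cell marker Klrb1c (0.84) and the mast cell marker Gata2 (3.61) rose. Of all genes tested, 12.5% fell and 12.5% rose in this comparison.

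Lists of other cell types were near the bottom of the TPM scale. Of 6 T cell markers, 1 passed (Lck, the most abundant), and the sums were 2.01, 2.08 and 1.93 in WT, 3.22, 3.77 and 4.24 in WTL, 1.57, 0.52 and 1.05 in KO and 3.26, 3.73 and 2.79 in KOL, with Cd3e, Cd3g, Trac and Cd5 under 1 TPM throughout. No B cell marker of 5 passed, the sums led by Cd79a being 1.71, 0.83 and 0.71 in WT, 0.54, 1.15 and 1.46 in WTL, 0.64, 0.66 and 0.86 in KO and 1.21, 0.97 and 1.11 in KOL. Of 5 NK cell markers, 1 passed (Klrb1c, the most abundant) and Klra8 was at 0 in all libraries, with sums of 3.34, 1.54 and 1.19 in WT, 0.91, 0.69 and 0.89 in WTL, 2.43, 2.34 and 1.9 in KO and 1.73, 1.21 and 0.62 in KOL. Of 5 mast cell and basophil markers, 1 passed, the most abundant, Gata2, a progenitor factor that rose in KO (2.82), and the sums were 0.77, 1.08 and 0.98 in WT, 0.19, 0.31 and 1.14 in WTL, 3.51, 2.98 and 2.54 in KO and 4.59, 3.6 and 2.69 in KOL. Of 5 fibroblast markers, 1 passed (Pdgfra, the most abundant), with sums of 0.09, 0.18 and 0.43 in WT, 0.33, 3.62 and 0.48 in WTL, 0.44, 0.03 and 0.61 in KO and 0.32, 2.12 and 0.41 in KOL. None of these lists reached 5 TPM in any library, and what the dendritic cell, macrophage, plasmacytoid and neutrophil markers contribute to the antiviral gene results was not tested.

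Unstimulated cells already contained RNA of all 40 antiviral genes. Summed over the genes, TPM in unstimulated cells came to 1581 ± 13.8 for WT and 1081 ± 9.19 for KO, and after LPS it came to 14849.9 ± 970.2 for WTL and 14181 ± 596 for KOL (± SD, n = 3). As a share of all counts they took 0.279% in WT, 2.53% in WTL, 0.19% in KO and 2.37% in KOL. At rest the most abundant was Bst2, with 196 ± 6.00 TPM in WT and 162 ± 4.09 TPM in KO (SD, n = 3), followed by Isg15 and Mx1 in both groups. After LPS the order was led by Isg15, at 3291 ± 327 TPM in WTL and 3901 ± 113 TPM in KOL (SD, n = 3), followed by Mx1 and Oasl1. Over 100 TPM on average were 3 genes in WT and 2 in KO, against 32 in WTL and 31 in KOL. In RNA pooled from many selected cells, fewer cells making a transcript and less RNA per cell cannot be told apart.

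LPS raised every one of the 40 genes in both genotypes. In WTL against WT, 40 of 40 rose, compared with 12.6% of all genes tested, and the median log2 fold change was 3.43 over these genes and -0.02 over all genes. In KOL against KO, 40 of 40 rose, compared with 15.1% of all genes tested, with medians of 4.05 and -0.02. Every LPS library was above every unstimulated library of its genotype for each of the 40 genes, as it was for 31.8% of all genes tested in WT cells and 34.9% in KO cells. The number that fell was 0 in both comparisons by edgeR, was 0 as well at an unadjusted p under 0.05, and was 0 by DESeq2 and by limma on TPM. The genes were listed as interferon-stimulated, so the direction after LPS is one that their choice goes with, and the counts are a description. A change of scale moves the middle of all genes: with limma on log2(TPM + 1) and log2(TPM + 0.1), the median of all genes was -0.44 and -0.51 in WTL against WT, -0.38 and -0.45 in KOL against KO, and -0.10 and -0.12 in KO against WT. Among all genes called, the share that was higher went from 55.8% to 28.1% and 23.4% in WTL against WT, from 53.7% to 30.0% and 27.2% in KOL against KO, from 50.2% to 38.1% and 37.1% in KO against WT, and from 49.9% to 61.1% and 64.3% in the interaction. The 40 genes all rose under both settings, with medians of 2.80 and 2.88 in WTL against WT and 3.30 and 3.59 in KOL against KO.

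**Figure D1:**
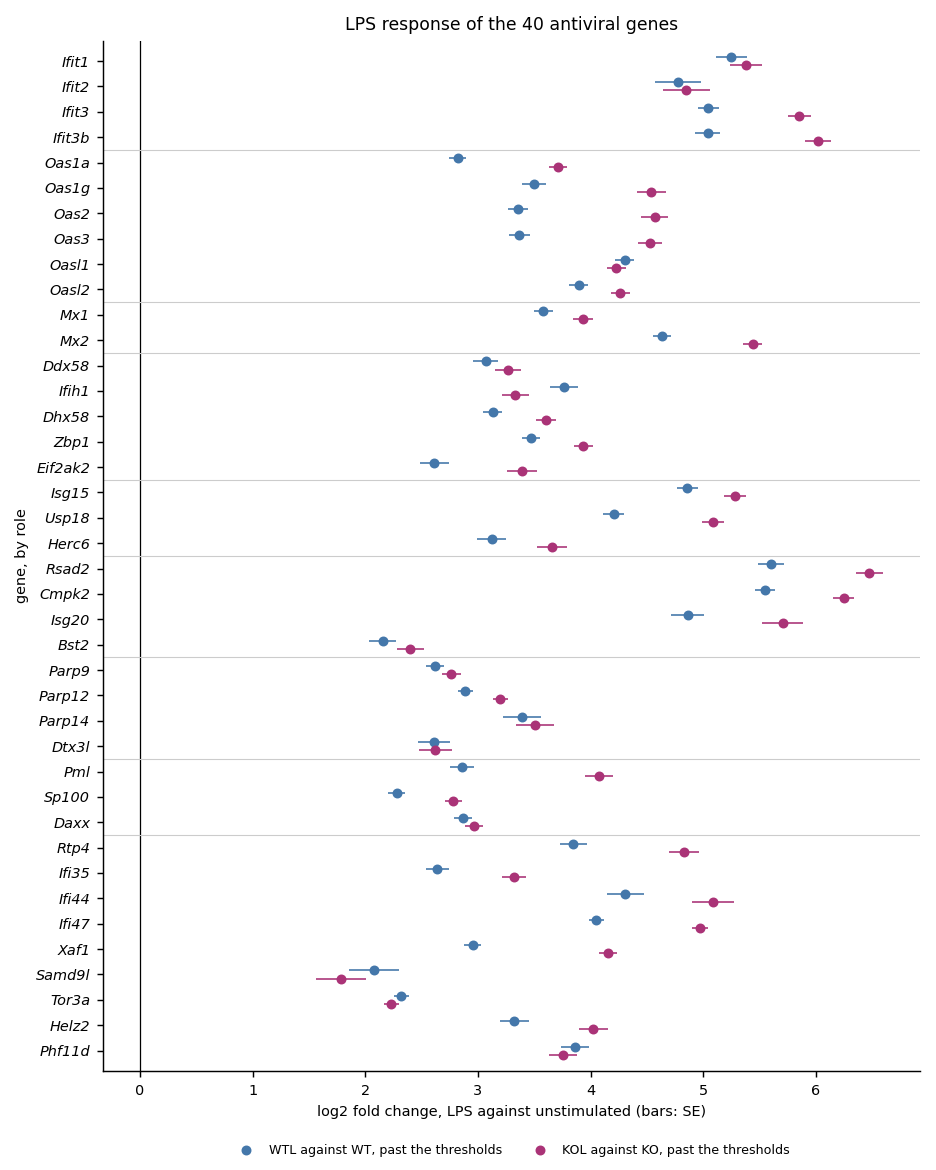
Log2 fold change of each of the 40 antiviral genes after LPS (x axis, bars are SEs from edgeR) in WT cells (WTL against WT, blue) and KO cells (KOL against KO, purple), with genes on the y axis grouped by role. All 80 points lie to the right of 0, between 1.78 (Samd9l, KO cells) and 6.48 (Rsad2, KO cells).

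At rest, most of the genes were lower in KO than in WT cells. In KO against WT, 29 of 40 fell, compared with 17.2% of all genes tested, and 2 rose, compared with 17.3%. The genes that rose were Ifih1 and Phf11d. The median log2 fold change was -0.63 over the 40 genes and -0.01 over all genes. Every KO library was below every WT library for 35 genes (against 32.3% of all genes tested) and above it for 2 (against 31.9%), while the libraries of Ifit3b, Oasl1 and Tor3a overlapped. The 9 genes that passed in neither direction were Ifit1, Ifit2, Ifit3b, Oasl1, Isg15, Bst2, Parp9, Samd9l and Tor3a.

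After LPS, fewer of the genes passed between the genotypes, at a fold cutoff of 1.5 where that at rest was 1.3. In KOL against WTL, 5 of 40 fell (Oas2, Pml, Isg20, Oas3 and Oas1g), compared with 12.5% of all genes tested, and 3 rose (Ifit3b, Ifih1 and Phf11d), compared with 12.5%. The median log2 fold change was -0.20 over the 40 genes and -0.03 over all genes. A further 16 genes that were lower in KOL and 2 that were higher (Mx2 and Isg15) had an adjusted p under 0.05 and a fold change short of 1.5, and without the fold cutoff 21 were lower and 5 higher, compared with 23.3% and 21.4% of all genes tested. At rest, without its fold cutoff, 30 were lower and 2 higher, compared with 22.4% and 22.2% of all genes tested, and the difference between these counts was not tested. Every KOL library was below every WTL library for 18 genes (against 24.4% of all genes tested) and above it for 5 (against 21.9%), and the libraries of the other 17 overlapped. These counts rested on single libraries. Without KOL replicate 2, 10 genes fell, Ifit2, Parp14, Dtx3l, Daxx and Samd9l being added, and 1 rose. Without WTL replicate 3, 7 fell and 1 rose, without WTL replicate 2, 2 rose, and with WTL replicate 1 and KOL replicate 2 both left out, 6 fell and 3 rose. With limma on either TPM scale, 1 rose (Ifit3b).

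As a ratio, the deficit at rest was smaller after LPS, which is to say that the log2 LPS response was larger in KO cells for many of the genes. This holds for the rise relative to the unstimulated level and not for the counts gained. Mean normalized counts of Oas2 went from 108 to 1103 in WT cells and from 19.5 to 465 in KO cells. The interaction was above 0 past the threshold for 25 of 40 genes, compared with 8.7% of all genes tested, and its median was 0.52 over the 40 genes and -0.02 over all genes. Below 0 past the threshold were 0 genes by edgeR, compared with 8.75% of all genes tested. At an unadjusted p under 0.05 there was 1 (Ifih1), and DESeq2 and limma on either TPM scale gave 0. By sign alone the interaction was above 0 for 35 of the 40 genes and below 0 for 5, compared with 48.3% and 51.7% of all genes tested. The count below 0 past the threshold was 1 without KOL replicate 2 and 1 without WTL replicate 3 (Ifih1 in each) and 2 with WTL replicate 1 and KOL replicate 2 both left out (Ifih1 and Samd9l), where 28 were above 0 past it. Read by pattern, 24 genes (compared with 8.43% of all genes tested) fell in KO against WT and passed in neither direction in KOL against WTL, some with a small adjusted p and a fold change short of 1.5. For 19 of these 24 the interaction passed above 0, as it did for 32.3% of all genes of this pattern. Lower in both comparisons were 5 genes (against 8.47%), for 4 of which the interaction passed above 0 (against 11.6%). Higher in both were Ifih1 and Phf11d (against 8.60%). KO and WT libraries enter the interaction with the opposite sign, so a gene picked as low in KO tends to a positive interaction by chance as well. Passing in neither comparison were 8 genes (against 58.0% of all genes tested). Of these, Isg15 alone had an interaction above 0 past the threshold (against 3.36% of all genes of this pattern). Ifit3b, which was higher only in KOL against WTL (against 3.63%), had one as well (against 47.8%).

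**Figure D2:**
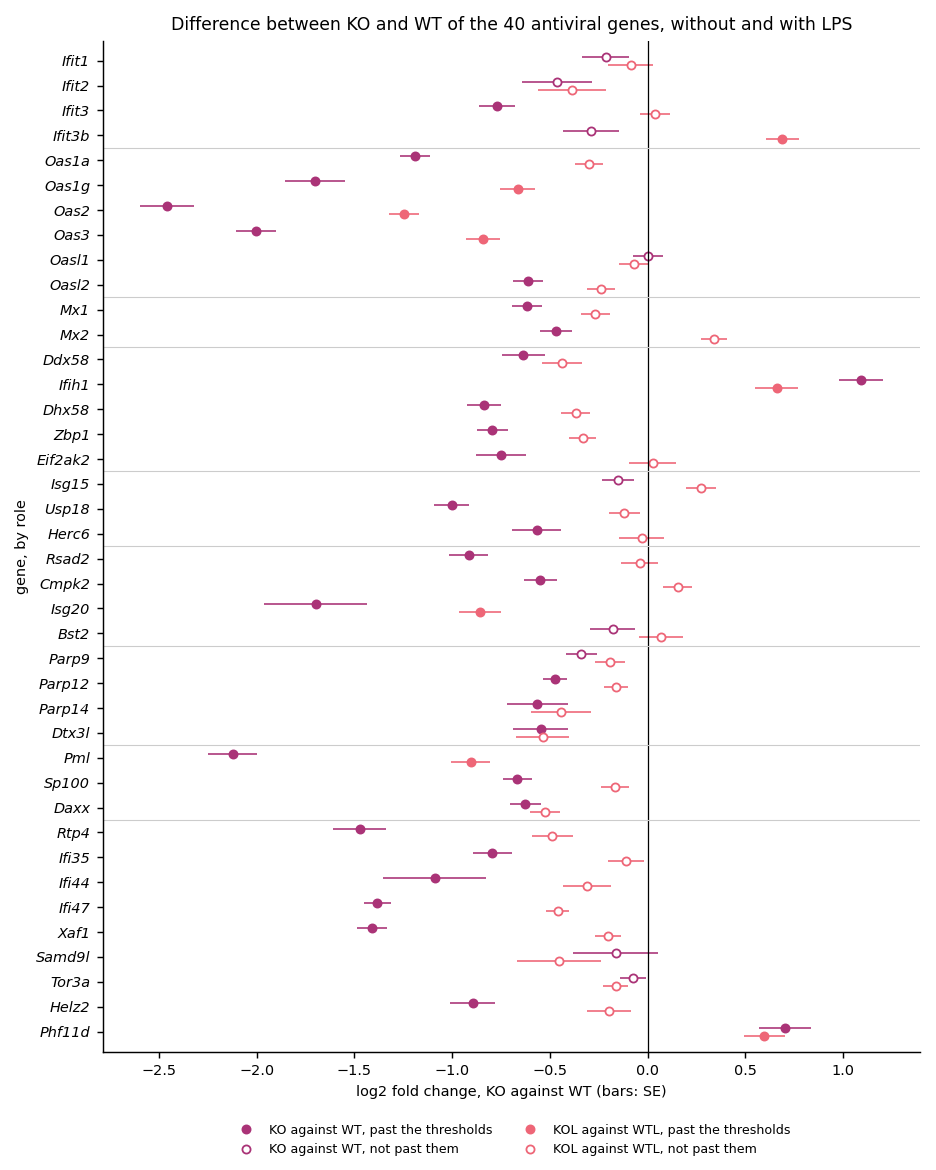
Log2 fold change of each of the 40 antiviral genes between genotypes (x axis, bars are SEs from edgeR) without LPS (KO against WT, purple) and with LPS (KOL against WTL, red), with genes on the y axis grouped by role and open circles for values short of the thresholds. Oas2 lies furthest to the left in both comparisons, at -2.46 and -1.25, and Ifih1 and Phf11d lie to the right of 0 in both.

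The IFIT proteins bind viral RNA and block its translation, and the genes of 4 of them, Ifit2, Ifit3, Ifit3b and Ifit1, lie side by side on chromosome 19 from 34550694 to 34650009 of mm10. Ifit1, which recognises RNA caps that lack the methylation of host mRNA, was the most abundant of them by TPM. Its expected counts were not whole numbers in any of the 12 libraries, so some of its reads may have been split with similar sequences. Normalized counts of Ifit1 were 812, 778 and 919 in WT, 38174, 29948 and 27411 in WTL, 763, 695 and 704 in KO and 26659, 33511 and 29791 in KOL. KO libraries were below WT libraries by a margin smaller than the spread in WT, while WTL and KOL libraries overlapped. Its log2 fold change after LPS was 5.25, SE 0.14 in WT cells and 5.38, SE 0.14 in KO cells, and the value in KO against WT was -0.21 (SE 0.12, adjusted p = 0.17 by edgeR's quasi-likelihood test (Benjamini-Hochberg)). Normalized counts of Ifit3b were 42.3, 62.1 and 49.3 in WT, 1737, 1702 and 1646 in WTL, 43.1, 45.1 and 38.0 in KO and 2597, 2819 and 2783 in KOL. WT and KO libraries overlapped, and all KOL libraries were above all WTL libraries. Ifit3b, a near copy of Ifit3, rose in KOL against WTL (log2 fold change 0.69, SE 0.08, adjusted p = 1.1e-05 by the same edgeR quasi-likelihood test (Benjamini-Hochberg)), and its interaction was 0.98. In KO against WT its value was -0.29, and without WT replicate 1 it fell (-0.44). Ifit3 fell at rest (log2 fold change -0.77, SE 0.09), and its interaction was 0.81.

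Reads of Ifit3 and Ifit3b may have been split between them by RSEM, so the level of each is uncertain. Their sum was 329.8, 353 and 397 normalized counts in WT, 12444, 11546 and 11653 in WTL, 229.7, 226 and 213 in KO and 12346, 13879 and 13378 in KOL. For the sum, KO libraries were below WT libraries, and KOL and WTL libraries overlapped. Ifit2, a partner of the other IFITs, had a log2 fold change of -0.46, SE 0.18 in KO against WT and missed the threshold narrowly. It passed with DESeq2 (-0.48), with DESeq2's size factors in edgeR (-0.48), with limma on log2(TPM + 1) (-0.53) and log2(TPM + 0.1) (-0.55), without a filter on low counts (-0.46) and in a fit of the 6 libraries alone (-0.46). In KOL against WTL Ifit2 had a value of -0.39 and fell only without KOL replicate 2 (-0.61).

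The oligoadenylate synthetases sense double-stranded RNA and answer it by making oligoadenylates, which set off the decay of RNA in the cell. Oas2, Oas3, Oas1g and Oas1a form a cluster on chromosome 5 from 120730333 to 120907521 of mm10, and Oas2 had the lowest KO level relative to WT of the 40 genes. Normalized counts of Oas2 were 110.2, 115 and 97.7 in WT, 1154, 1131 and 1025 in WTL, 18.8, 17.3 and 22.2 in KO and 442, 488 and 466 in KOL. All KO libraries were below all WT libraries, all KOL libraries were below all WTL libraries, and LPS libraries were above unstimulated ones. The KO level of Oas2 was 18.2% of WT (log2 fold change -2.46, SE 0.14, adjusted p = 4e-09 by edgeR's quasi-likelihood test (Benjamini-Hochberg)) and the KOL level was 42.2% of WTL (log2 fold change -1.25, SE 0.08). LPS raised Oas2 by 3.36 in WT cells and 4.57 in KO cells on the log2 scale, an interaction of 1.21 (SE 0.16). With limma on log2(TPM + 1), where the KO mean of 0.543 TPM is smaller than the pseudocount, the interaction of Oas2 was 0.43 and did not pass. Normalized counts of Oas3 were 436, 506 and 433 in WT, 4659.6, 4814 and 4727 in WTL, 122, 101 and 119 in KO and 2713, 2834 and 2380.1 in KOL. The order of the groups was that of Oas2, with no overlap between any pair of groups. Oas3 fell by 2.00 in KO against WT and by 0.84 in KOL against WTL on the log2 scale, and its interaction was 1.16, SE 0.13.

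Oas1g fell in both comparisons as well (log2 fold change -1.70, SE 0.16 without LPS and -0.66, SE 0.09 with LPS). Oas1a fell at rest (log2 fold change -1.19, SE 0.08), and with LPS its value of -0.30 was short of the fold cutoff. Interactions were 1.04 for Oas1g and 0.89 for Oas1a. Oas1a and Oas1g are near copies whose reads may have been split, so each level is uncertain. Their sum was 696 ± 39.7 normalized counts in WT, 5314 ± 167 in WTL, 293 ± 14.5 in KO and 4132 ± 76.8 in KOL (SD, n = 3), and for the sum too all KO libraries were below all WT libraries and all KOL libraries below all WTL libraries. Oasl1 and Oasl2, the synthetase-like genes, lie together elsewhere on chromosome 5 from 114896936 to 114937915. Oasl1 lacks the synthetase activity and is known to limit translation of Irf7, and it had the highest TPM of the family. Normalized counts of Oasl1 were 1086, 1276 and 1269 in WT, 22724, 24948 and 24058 in WTL, 1226, 1171 and 1239 in KO and 22511, 23912 and 21839 in KOL. The KO libraries lay within the range of the WT libraries, and KOL and WTL libraries overlapped. Its log2 fold change after LPS was 4.30, SE 0.09 in WT cells and 4.23, SE 0.09 in KO cells, with an interaction of -0.07, SE 0.11, so that it was the member of the family with no call in any comparison of genotypes. The sign of its value near 0 in KO against WT (0.00) changed with the scaling, to -0.01 with DESeq2 and -0.12 with limma on TPM. Oasl2 fell at rest (log2 fold change -0.61, SE 0.08), and its interaction of 0.37 did not pass without KO replicate 1 (0.39), KO replicate 2 (0.38), KO replicate 3 (0.35) or WTL replicate 2 (0.37), nor with limma on log2(TPM + 1) (0.29) or log2(TPM + 0.1) (0.30).

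Mx1 and Mx2 encode dynamin-like GTPases that act on viral nucleoproteins, in the nucleus and the cytoplasm respectively, and lie beside each other on chromosome 16 from 97447035 to 97560900 of mm10. Many inbred mouse strains carry Mx1 alleles that give no functional protein, which a transcript level does not show. Normalized counts of Mx1 were 2706, 2648 and 2793 in WT, 35444, 31361 and 30750.4 in WTL, 1752, 1850.1 and 1704 in KO and 26225, 29324 and 25530.5 in KOL. All KO libraries were below all WT libraries, and all KOL libraries were below all WTL libraries by a smaller ratio. Mx1 fell at rest (log2 fold change -0.62, SE 0.08, adjusted p = 1.5e-05 by edgeR's quasi-likelihood test (Benjamini-Hochberg)), and with LPS its value was -0.27, short of the fold cutoff. LPS raised it by 3.58 in WT cells and 3.93 in KO cells on the log2 scale. The interaction of Mx1, 0.35, SE 0.11, was close to the threshold and did not pass without KO replicate 1 (0.34), KO replicate 2 (0.39), KO replicate 3 (0.32), KOL replicate 1 (0.37), WTL replicate 2 (0.33) or WTL replicate 3 (0.31), nor with limma on log2(TPM + 1) (0.28) or log2(TPM + 0.1) (0.29). Mx2 fell at rest (log2 fold change -0.47, SE 0.08), although not with limma on log2(TPM + 1) (-0.29) or log2(TPM + 0.1) (-0.31). After LPS all KOL libraries of Mx2 were above all WTL libraries, with a log2 fold change of 0.34 that was short of the fold cutoff, and its interaction was 0.81, SE 0.11. Reads common to Mx1 and Mx2 may have been split between them. Their sum was 2920.1 ± 85.2 normalized counts in WT, 37598 ± 2536 in WTL, 1917 ± 85.9 in KO and 33462 ± 1914 in KOL (SD, n = 3).

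Among the sensors of viral nucleic acid, Ifih1 went the other way from the rest. It encodes MDA5, which binds long double-stranded RNA. Normalized counts of Ifih1 were 1325, 1275 and 1327 in WT, 21039, 16637 and 15583 in WTL, 2869, 2706 and 2798 in KO and 25367, 32518 and 26289.7 in KOL. Ifih1 was higher in every KO library than in any WT library, and higher in every KOL library than in any WTL library. The gene rose 2.13-fold in KO against WT (log2 fold change 1.09, SE 0.11, adjusted p = 2.2e-06 by edgeR's quasi-likelihood test (Benjamini-Hochberg)) and 1.58-fold in KOL against WTL (log2 fold change 0.66, SE 0.11). The rise in KOL against WTL was short of the fold cutoff without KOL replicate 2 (0.54) or WTL replicate 3 (0.58) and with limma on either TPM scale (0.58 in both). LPS raised Ifih1 by 3.76 in WT cells and 3.33 in KO cells on the log2 scale. Its interaction was -0.43, SE 0.16, with an adjusted p of 0.074 by the same edgeR quasi-likelihood test (Benjamini-Hochberg), and passed without KOL replicate 2 (-0.55), without WTL replicate 3 (-0.52), with WTL replicate 1 and KOL replicate 2 both left out (-0.41) and without a filter on low counts (-0.42). The other 4 sensors fell at rest and were short of the fold cutoff or the threshold in KOL against WTL. Log2 fold changes in KO against WT were -0.64 for Ddx58, which encodes RIG-I, -0.84 for Dhx58, which encodes LGP2, -0.79 for Zbp1, a sensor of nucleic acid in the Z form, and -0.75 for Eif2ak2, which encodes the kinase PKR that arrests translation. In KOL against WTL these values were -0.44, -0.37, -0.33 and 0.03. The interaction passed for Dhx58 (0.47), Zbp1 (0.46) and Eif2ak2 (0.78) and was 0.20 (SE 0.15) for Ddx58.

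ISG15 is a ubiquitin-like protein that is joined to other proteins by HERC6 and removed by USP18, which also damps signalling at the interferon receptor. Normalized counts of Isg15 were 785, 838 and 799 in WT, 20513, 24502 and 25304 in WTL, 754, 710.5 and 717 in KO and 28169, 27446 and 29307 in KOL. KO libraries were below WT libraries by a narrow margin, and all KOL libraries were above all WTL libraries. Neither difference between genotypes passed, with a log2 fold change of -0.15, SE 0.08 without LPS and one of 0.27, SE 0.08 with LPS. LPS raised Isg15 by 4.86 in WT cells and 5.28 in KO cells on the log2 scale, an interaction of 0.42 (SE 0.11) that did not pass without KO replicate 2 (0.41) or KO replicate 3 (0.41). Usp18 fell at rest to 49.9% of its WT level, had a value of -0.12 in KOL against WTL and an interaction of 0.88, SE 0.12. Herc6, which overlaps the gene Gm45193 over 1269 exonic bases of the same strand, fell at rest too (log2 fold change -0.57, SE 0.13). The interaction of Herc6, 0.54, SE 0.17, did not pass without KO replicate 1 (0.51), KO replicate 3 (0.46), KOL replicate 2 (0.43), KOL replicate 3 (0.57), WT replicate 3 (0.52), WTL replicate 2 (0.50) or WTL replicate 3 (0.47), nor with limma on log2(TPM + 1) (0.50) or log2(TPM + 0.1) (0.53).

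Of the 4 direct effectors, Rsad2 and Cmpk2 responded most to LPS. Rsad2 encodes viperin, an enzyme that makes a chain-terminating nucleotide, and Cmpk2 a mitochondrial nucleotide kinase, and both lie on chromosome 12 from 26442746 to 26479837 of mm10. Normalized counts of Rsad2 were 912, 948 and 964 in WT, 52375, 44488 and 40186 in WTL, 539, 493 and 464 in KO and 42469, 48789 and 42023 in KOL. The KO libraries lay below the WT libraries, and KOL and WTL libraries overlapped. LPS raised Rsad2 48.5-fold in WT cells (log2 fold change 5.60, SE 0.12) and 89.0-fold in KO cells (log2 fold change 6.48, SE 0.12), the largest rise of the 40 genes in each. Rsad2 fell at rest (log2 fold change -0.92, SE 0.10), and its interaction was 0.88, SE 0.14 (adjusted p = 0.0007 by edgeR's quasi-likelihood test (Benjamini-Hochberg)). Normalized counts of Cmpk2 were 292, 272 and 299.9 in WT, 14142, 13671 and 12589 in WTL, 188, 212 and 191 in KO and 15182, 14116 and 15623 in KOL. Cmpk2 was lower in every KO library than in any WT library, and after LPS KOL replicates 1 and 3 were above every WTL library and KOL replicate 2 was among them. LPS raised Cmpk2 by 5.55 in WT cells and 6.25 in KO cells on the log2 scale, it fell at rest (-0.55), and its interaction was 0.70, SE 0.11.

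Isg20 encodes an exonuclease that degrades single-stranded RNA. Normalized counts of Isg20 were 36.7, 39.4 and 38.9 in WT, 1125, 1089.8 and 1150.4 in WTL, 9.87, 15.4 and 10.2 in KO and 575, 759 and 526 in KOL. It had few counts at rest, all KO libraries were below all WT libraries, and all KOL libraries were below all WTL libraries, KOL replicate 2 being the nearest. Isg20 fell in both comparisons (log2 fold change -1.70, SE 0.26 without LPS and -0.86, SE 0.11 with LPS). Its interaction of 0.84, SE 0.29 did not pass but did without KOL replicate 2 (0.67) or KOL replicate 3 (0.95), with WTL replicate 1 and KOL replicate 2 both left out (0.67), with DESeq2 (0.86) and without a filter on low counts (0.85). Bst2 encodes tetherin, which holds virions at the cell surface. Its log2 fold change after LPS was 2.15, SE 0.12 in WT cells and 2.40, SE 0.12 in KO cells, among the smallest of the 40 genes, and it was -0.18 in KO against WT and 0.07 in KOL against WTL, neither past the threshold. The interaction of Bst2, 0.25, SE 0.16, passed only without KOL replicate 2 (0.37) or with both deviating LPS libraries left out (0.25).

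PARP9 and the ubiquitin ligase DTX3L act as a complex, and PARP12 and PARP14 attach ADP-ribose to proteins. Parp14, Dtx3l and Parp9 lie together on chromosome 16 from 35832874 to 35972605 of mm10. Normalized counts of Parp14 were 3809, 3869 and 4148 in WT, 49718, 38636 and 35400.0 in WTL, 2771, 2698 and 2529.9 in KO and 26125, 39699 and 25099 in KOL. Without LPS the KO libraries were below the WT libraries, whereas after LPS KOL replicates 1 and 3 were below every WTL library and KOL replicate 2 was among them. Parp14 fell at rest (log2 fold change -0.56, SE 0.16, adjusted p = 0.0089 by edgeR's quasi-likelihood test (Benjamini-Hochberg)). In KOL against WTL its value was -0.44, SE 0.15, short of the fold cutoff, and without KOL replicate 2 it fell (-0.69). Dtx3l fell at rest (log2 fold change -0.55, SE 0.14) and had a value of -0.54 in KOL against WTL that passed without KOL replicate 2 (-0.73), without WTL replicate 3 (-0.62) and with both deviating LPS libraries left out (-0.61). Parp9 was lower in every KO library than in any WT library, with a log2 fold change of -0.34 that was short of the fold cutoff. It passed without WT replicate 1 (-0.39), without WT replicate 3 (-0.38) and with limma on log2(TPM + 1) (-0.48) or log2(TPM + 0.1) (-0.49). Parp9 and Dtx3l overlap on opposite strands over 458 exonic bases, and the strand setting used in counting is not given in the sources used here, so their levels are uncertain. The sum of both was 2356 ± 87.3 normalized counts in WT, 14429.5 ± 1583 in WTL, 1739 ± 34.4 in KO and 11307 ± 1608 in KOL (SD, n = 3). Parp12 fell at rest (log2 fold change -0.47, SE 0.06) and alone of these genes had an interaction past the threshold, 0.31, SE 0.09. It did not pass without KO replicate 1 (0.31), KO replicate 2 (0.32), KO replicate 3 (0.30) or WTL replicate 2 (0.30), nor without a filter on low counts (0.33).

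PML, SP100 and DAXX are the main proteins of PML nuclear bodies, which repress incoming viral genomes, and the genes of all 3 fell in KO against WT. Normalized counts of Pml were 335, 358 and 347 in WT, 2298, 2618 and 2630.5 in WTL, 62.8, 94.1 and 82.4 in KO and 1448, 1362 and 1224 in KOL. Pml was lower in all KO libraries than in all WT libraries and lower in all KOL than in all WTL libraries, and each genotype's LPS libraries were far above its unstimulated ones. The KO level of Pml was 23.0% of WT (log2 fold change -2.12, SE 0.13, adjusted p = 7.1e-09 by edgeR's quasi-likelihood test (Benjamini-Hochberg)) and the KOL level was 53.4% of WTL (log2 fold change -0.90, SE 0.10). LPS raised Pml by 2.86 in WT cells and 4.08 in KO cells on the log2 scale. Its interaction of 1.22, SE 0.16 was the largest of the 40 genes in the main fit, with Oas2 (1.21) and Xaf1 (1.20) close to it. Alternatives other than single libraries left out reached 1.55 for Xaf1 and 1.34 for Oas2 but 1.23 for Pml. Normalized counts of Sp100 were 1196, 1179 and 1221 in WT, 6289, 5526 and 5646 in WTL, 779, 748 and 738 in KO and 5042, 5597 and 4924 in KOL. KO libraries were below WT libraries, and after LPS KOL replicate 2 was above the lowest WTL library, so that those groups overlapped. Sp100, the most abundant of the 3 genes at rest by TPM, had a log2 fold change of -0.67, SE 0.07 without LPS and -0.17, SE 0.07 with LPS, and its interaction of 0.50 did not pass with limma on log2(TPM + 1) (0.42) or log2(TPM + 0.1) (0.43). Expected counts of Sp100 were not whole numbers in any of the 12 libraries, so reads may have been split with similar sequences and its level is uncertain. Daxx fell at rest (log2 fold change -0.63, SE 0.08) and had a value of -0.52 in KOL against WTL that was short of the fold cutoff and passed without KOL replicate 2 (-0.59). LPS raised Daxx by 2.87 in WT cells and 2.97 in KO cells on the log2 scale, an interaction of 0.10, SE 0.11 that did not pass.

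The other 9 genes have more varied functions. Ifi47 encodes an immunity-related GTPase and was the most abundant of them by TPM over the 12 libraries. Normalized counts of Ifi47 were 480.4, 474 and 502 in WT, 7942, 7992 and 8201 in WTL, 196, 186 and 176 in KO and 5814, 5761 and 5960.3 in KOL. The 4 groups did not overlap, with KO below WT and KOL below WTL. Ifi47 fell at rest (log2 fold change -1.38, SE 0.07), had a value of -0.46, SE 0.06 in KOL against WTL that was short of the fold cutoff, and had an interaction of 0.92, SE 0.09. It shares 111 exonic bases with Olfr56 on the same strand, so reads of these genes may have been mixed. Normalized counts of Xaf1 were 391, 399 and 430.4 in WT, 3196, 3150.1 and 3109 in WTL, 151, 146 and 163 in KO and 2637, 2865 and 2707 in KOL. The groups were ordered in the same way without overlap, with KOL nearer to WTL than KO was to WT. Xaf1, an antagonist of the inhibitor of apoptosis XIAP, fell at rest (log2 fold change -1.41, SE 0.08, adjusted p = 3.4e-09 by edgeR's quasi-likelihood test (Benjamini-Hochberg)), and LPS raised it by 2.95 in WT cells and 4.16 in KO cells on the log2 scale, an interaction of 1.20 (SE 0.10). Normalized counts of Phf11d were 117, 128 and 120.1 in WT, 2084, 1659.5 and 1584 in WTL, 197, 188 and 209 in KO and 2439, 3057 and 2553 in KOL. All KO libraries were above all WT libraries, and all KOL libraries were above all WTL libraries. Phf11d, which encodes a protein with a PHD finger and has similar neighbours that make its counts uncertain, rose in KO against WT (log2 fold change 0.70, SE 0.13) and in KOL against WTL (log2 fold change 0.60, SE 0.11). The latter was short of the fold cutoff without KOL replicate 2 (0.49), WTL replicate 2 (0.55) or WTL replicate 3 (0.52), and with limma on log2(TPM + 1) (0.57) or log2(TPM + 0.1) (0.58). Its interaction was -0.11, SE 0.17.

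Rtp4, which encodes a transporter-like protein that restricts flaviviruses, fell at rest (log2 fold change -1.47, SE 0.14) with an interaction of 0.99. Helz2, a helicase gene, fell by 0.90 and Ifi35 by 0.79 on the log2 scale in KO against WT, with interactions of 0.70 and 0.68. Ifi44 fell as well (log2 fold change -1.09, SE 0.26), and its interaction of 0.78, SE 0.29 passed only without WTL replicate 1 (0.95), with both deviating LPS libraries left out (0.85) or without a filter on low counts (0.80). Samd9l and Tor3a differed little at rest, with log2 fold changes of -0.16, SE 0.22 and -0.07, SE 0.07. Samd9l, an inhibitor of translation, responded least to LPS, by 2.08 in WT cells and 1.78 in KO cells on the log2 scale. Its value in KOL against WTL was -0.45, SE 0.21, and it fell without KOL replicate 2 (-0.76) or WTL replicate 3 (-0.62), while its interaction of -0.29 passed with both deviating LPS libraries left out (-0.29). Tor3a, a torsin gene, had a value of -0.16, SE 0.06 in KOL against WTL and an interaction of -0.09. Exons of further antiviral genes overlap genes of few reads, so that a small part of their counts is uncertain: Oasl1 shares 38 bases with Gm13822, Dhx58 141 with Dhx58os, Usp18 124 with Gm44148 and Ifi35 290 with Gm11626 on opposite strands, and Parp14 shares 110 with Gm49730 and Rtp4 296 with Gm45338 on the same strand. Of these partners, Dhx58os had the highest group mean, 46.8 normalized counts in WTL.

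**Figure D3:**
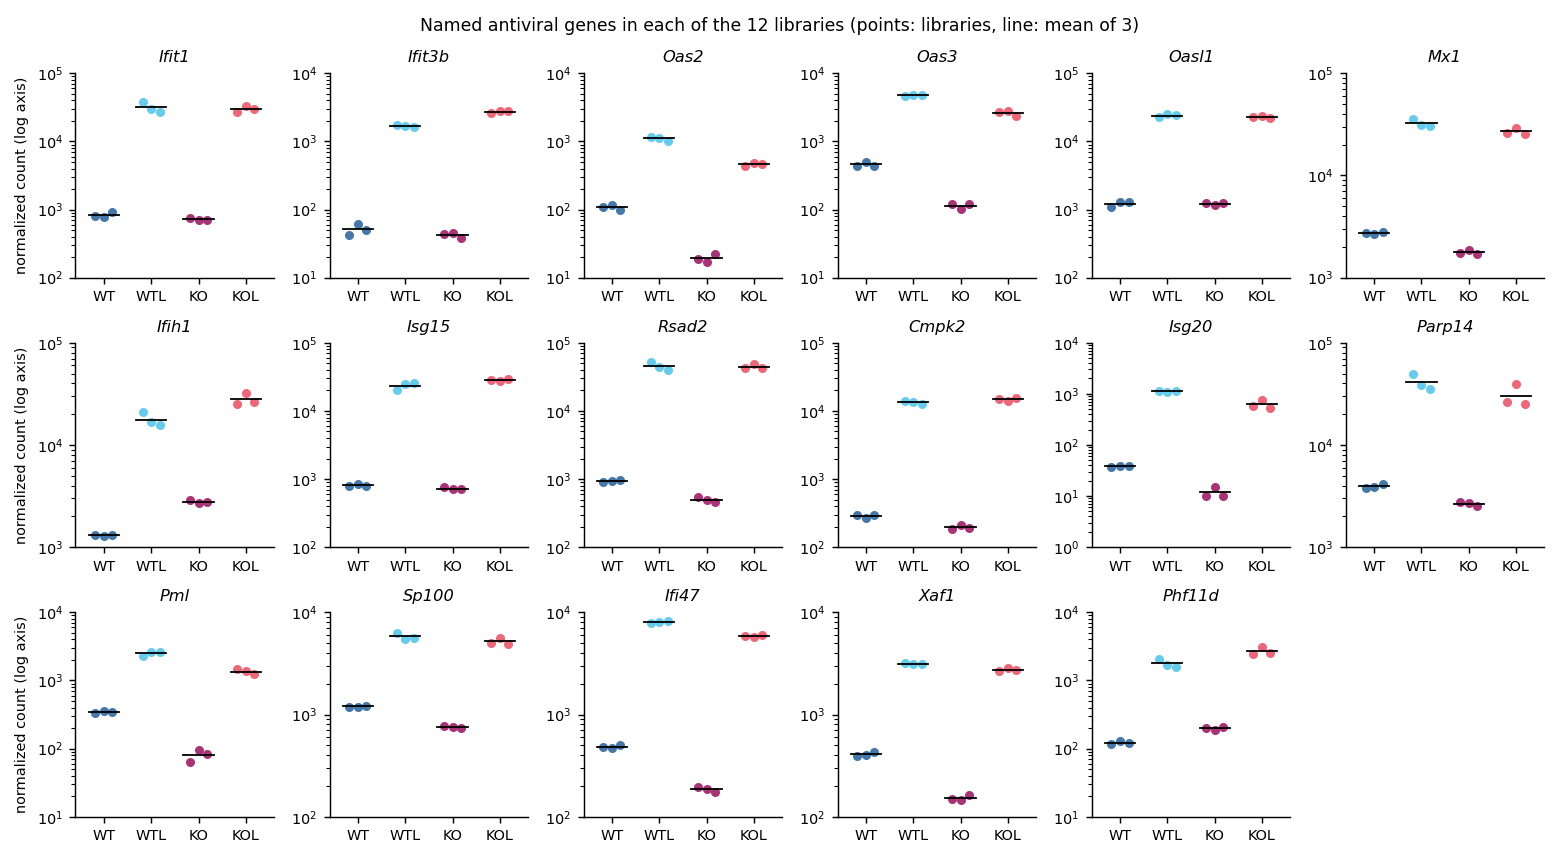
Normalized counts (y axis, logarithmic) of the 17 antiviral genes described in every library, in WT, WTL, KO and KOL (x axis). Each point is 1 library and each line the mean of 3, and the LPS groups lie above the unstimulated groups in every panel, while KO lies above WT only for Ifih1 and Phf11d among genes whose KO and WT libraries do not overlap.

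The pathway that feeds these genes was followed with lists of its own. Of 16 interferon ligands, only Ifnb1 passed the filter, and no other reached more than 8 counts in any library (Ifna4). Counts of Ifnb1, which encodes interferon-beta, were 2, 4 and 5 in WT, 101, 137 and 152 in WTL, 0, 0 and 0 in KO and 109, 78 and 136 in KOL. LPS libraries were far above unstimulated ones in both genotypes, WTL and KOL overlapped, and at rest all libraries were at or near 0. The log2 fold change of Ifnb1 was 5.49, SE 0.29 in WTL against WT, and in KOL against KO the rise was at least 42.4-fold, with 3 counts per KO library taken as the floor. At this depth a difference between a few counts in WT and none in KO is given only as counts, and in KOL against WTL the value was -0.33, SE 0.18. Of 6 interferon receptor genes, 3 rose in KO against WT (Ifnar1, Ifngr2 and Ifnlr1), where 17.3% of all genes tested did. Normalized counts of Ifnar1 were 1653, 1605 and 1731 in WT, 3137, 2683 and 2310.4 in WTL, 2608, 2629.8 and 2574 in KO and 2125, 2877 and 2094 in KOL. KO libraries were above WT libraries, and KOL and WTL libraries overlapped. Ifnar1 rose at rest (log2 fold change 0.65, SE 0.12), and its interaction was -0.84, SE 0.17. Normalized counts of Ifnar2 were 674, 761 and 764 in WT, 1540.2, 1381 and 1275 in WTL, 691, 688 and 660.5 in KO and 919, 827 and 955 in KOL. Unstimulated libraries overlapped, and all KOL libraries were below all WTL libraries. Ifnar2 fell in KOL against WTL (log2 fold change -0.63, SE 0.09), although not without WTL replicate 1 (-0.56) or KOL replicate 2 (-0.58), without both (-0.50) or with limma on log2(TPM + 1) (-0.34) or log2(TPM + 0.1) (-0.35). Its interaction of -0.52, SE 0.12 did not pass without WT replicate 1 (-0.40) or with limma on either TPM scale (-0.10 in both). Ifnlr1, the receptor of interferon-lambda, rose in KO against WT (1.23, SE 0.14) and in KOL against WTL (1.09, SE 0.17), the latter not with limma on log2(TPM + 1) (0.58).

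Stat2 and Irf9 encode parts of the complex that binds the ISRE. Normalized counts of Stat2 were 1962, 1991 and 1969.7 in WT, 10576, 9840.3 and 9807 in WTL, 942, 898 and 907 in KO and 7736, 8680.4 and 7362 in KOL. Normalized counts of Irf9 were 1211, 1259 and 1328 in WT, 3381, 3201 and 3189.8 in WTL, 657, 690.3 and 658 in KO and 3012, 3179 and 3025 in KOL. For both genes KO libraries were below WT libraries, and KOL libraries were below WTL libraries, by less. Log2 fold changes in KO against WT were -1.11, SE 0.07 for Stat2 and -0.92, SE 0.07 for Irf9, both of which fell, and in KOL against WTL the values -0.35 and -0.08 did not pass. The interaction of Stat2 was 0.76, SE 0.10, short of the threshold with limma on log2(TPM + 1) (0.69) or log2(TPM + 0.1) (0.71), and that of Irf9 was 0.84, SE 0.09. Irf9 shares 123 exonic bases with Rnf31 on the same strand, so some of its reads may have been divided.

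In the arm from TLR4 to interferon, with 12 genes, 2 rose and 2 fell in KO against WT, shares near those of all genes tested (17.3% and 17.2%). Normalized counts of Irf7 were 325, 339.6 and 317 in WT, 6804, 7469 and 7301 in WTL, 188, 161 and 167 in KO and 5685, 5898 and 5625 in KOL. KO libraries were below WT libraries and KOL libraries below WTL libraries. Irf7, which drives interferon genes and is itself induced by interferon, fell at rest (log2 fold change -0.93, SE 0.08) and had a value of -0.33 in KOL against WTL and an interaction of 0.60, SE 0.10. Cd14, the LPS co-receptor, fell too (log2 fold change -0.65, SE 0.07), whereas Ikbke, a kinase of IRF3, rose (0.53, SE 0.08) with an interaction of -0.89. Ticam2, an adaptor of TRIF, rose (0.56, SE 0.13) with an interaction of -0.88. Of the other 3 IRF genes that act on interferon-stimulated genes, Irf1 fell in KO against WT (-1.32, SE 0.08) and in KOL against WTL (-0.92, SE 0.08), and its interaction of 0.40, SE 0.11 did not pass without KO replicate 1 (0.40), KO replicate 3 (0.37) or KOL replicate 1 (0.36). Irf8 fell in KOL against WTL (-1.09, SE 0.11), with an interaction of -0.94, SE 0.15, while Irf5 passed in neither comparison of genotypes. Among 7 feedback inhibitors, 1 fell in KO against WT (Trex1, a DNA exonuclease, -0.89, SE 0.09), where 17.2% of all genes tested did. In KOL against WTL 1 fell (Socs3, -0.76, SE 0.06, with an interaction of -1.11), where 12.5% did. Both counts are near these shares. Trex1 was short of the fold cutoff in KOL against WTL (-0.56). It fell there without KOL replicate 2 (-0.59) or WTL replicate 1 (-0.63), without both (-0.65) and with limma on either TPM scale (-0.59). Ptpn2 had an interaction of 0.46, SE 0.12.

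A further 32 interferon-stimulated genes outside the antiviral 40 were listed for comparison. In them, 29 rose in WTL against WT, where 12.6% of all genes tested did, and 29 rose in KOL against KO, where 15.1% did. In KO against WT 19 fell and 2 rose, where 17.2% and 17.3% of all genes tested did, and in KOL against WTL 9 fell, where 12.5% did. Past the threshold, the interaction was above 0 for 7 and below 0 for 6, where it was for 8.7% and 8.75% of all genes tested. By sign alone it was above 0 for 18 and below 0 for 14, where it was for 48.3% and 51.7%. Its median was 0.10, where the median of the 40 was 0.52. No test compared the lists. Cxcl9, a chemokine induced by interferon-gamma, fell in KO against WT (-1.91, SE 0.40) and in KOL against WTL (-2.04, SE 0.15), although at rest not with limma on log2(TPM + 1) (-0.86). Ifi27l2a fell in both as well (-1.74 and -1.37). The largest interactions were those of Ifit1bl1 (2.02, SE 0.23), a near relative of Ifit1 in sequence, and Ifi205 (1.57, SE 0.27), a member of a family of similar genes, and both sets of counts are uncertain for this reason. Targets of NF-kB belong to the other arm of TLR4 signalling. Of 15, all rose after LPS in both genotypes, where 12.6% of all genes tested did in WT cells and 15.1% in KO cells. In KO against WT 9 fell and 2 rose with a median of -1.55, where 17.2% and 17.3% of all genes tested did. In KOL against WTL 6 fell and 1 rose, where 12.5% did in each direction. Past the threshold, the interaction was above 0 for 9 and below 0 for 1 of them, where it was for 8.7% and 8.75% of all genes tested. By sign alone it was above 0 for 10 and below 0 for 5, where it was for 48.3% and 51.7%. Il23a (-3.19, SE 0.22) and Cxcl2 (-2.61, SE 0.09) had the largest falls in KO against WT, and Nfkbiz (-1.24, SE 0.07) and Ptgs2 (-1.13, SE 0.11) had those in KOL against WTL. The interaction of Il23a was 3.06, SE 0.26. Cxcl1 was the gene that rose in KOL against WTL (0.66, SE 0.13), though not without KOL replicate 3 (0.54) or WTL replicate 2 (0.56), and its interaction was 2.96, SE 0.20.

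Promoters of the members were searched for the binding sequences of these factors, since the genes move together after LPS. RefSeq windows of 300 bases on GRCm38.p6, from 250 bases before to 50 after each start, were matched for 30 of the 40 genes, in 36 windows. Not matched were Oas2, Mx1, Mx2, Dhx58, Zbp1, Usp18, Parp9, Parp14, Rtp4 and Tor3a. The ISRE was written as GAAA, any 2 bases and GAAA, the GAS element of STAT dimers as TTC, any 3 bases and GAA, and the NF-kB site as GGGA, any 2 bases and TTCC. All were searched on both strands, so that an ISRE on the other strand reads TTTC, any 2 bases and TTTC. ISRE letters were found in 12 of 36 windows (33.3%), against 3.44% of all 32851 windows. GAS letters were found in 6 (16.7%, against 8.3%) and NF-kB letters in 2 (5.56%, against 1.47%). ISRE and GAS matches overlapped in 24 of all windows. The 12 genes were Bst2, Ddx58, Eif2ak2, Ifih1, Ifit1, Ifit3, Ifit3b, Isg15, Oas1a, Oas1g, Oas3 and Rsad2. Among them are genes that fell in KO against WT, genes that did not pass and Ifih1, which rose. Whether a match goes with a direction was not tested, and 10 of the 40 genes had no window. A match is a description of letters in the window and not of a bound site.

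Stretches around the ISRE matches before the start are shown for 8 genes described above, those of the IFIT and OAS clusters to compare neighbours and copies, and those of Isg15 and Rsad2 as the most abundant gene and the largest rise after LPS. Capitals mark the matches and lower case the bases beside them, up to 20 on each side, read 5′ to 3′ on the strand of the gene, on GRCm38.p6 from RefSeq. The stretches are Ifit1 at chr19:34640765-34640833 on the plus strand, Ifit3 at chr19:34583353-34583436 on the plus strand, Ifit3b at chr19:34607749-34607832 on the plus strand, Oas1a at chr5:120907526-120907565 on the minus strand, Oas1g at chr5:120887614-120887651 on the minus strand, Oas3 at chr5:120777705-120777754 on the minus strand, Isg15 at chr4:156200855-156200916 on the minus strand and Rsad2 at chr12:26456543-26456592 on the minus strand. The first bases of the matches lie 104 and 85 bases before the start in Ifit1, 156 and 122 in Ifit3, 188 and 154 in Ifit3b, 20 and 14 in Oas1a, 18 and 12 in Oas1g, 75 in Oas3, 78, 72 and 66 in Isg15 and 120 in Rsad2. The stretches of Ifit3 and Ifit3b were identical at 84 of 84 bases, and Oas1a and Oas1g were identical at 38 of 38 bases compared. At rest Ifit3 fell and Ifit3b did not pass, but the fold changes of these copies were not tested against each other. Their reads may also have been split.
Ifit1: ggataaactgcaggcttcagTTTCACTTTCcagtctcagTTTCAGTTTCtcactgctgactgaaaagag
Ifit3: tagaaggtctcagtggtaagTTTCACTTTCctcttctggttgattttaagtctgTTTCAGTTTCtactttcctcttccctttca
Ifit3b: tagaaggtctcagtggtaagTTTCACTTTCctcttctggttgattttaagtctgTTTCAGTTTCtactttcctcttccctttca
Oas1a: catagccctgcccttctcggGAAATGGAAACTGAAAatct
Oas1g: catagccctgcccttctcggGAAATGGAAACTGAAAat
Oas3: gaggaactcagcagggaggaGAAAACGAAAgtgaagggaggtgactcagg
Isg15: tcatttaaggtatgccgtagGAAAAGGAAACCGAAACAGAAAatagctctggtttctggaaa
Rsad2: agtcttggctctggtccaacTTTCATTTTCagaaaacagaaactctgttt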

How the data were processed

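RNA-seq of 12 libraries was read as deposited. Per the submitters' processing notes, reads were aligned to mm10 with STAR 2.5.1, and the authors used RSEM to make the deposited expected count and TPM of each gene. The reporting summary of the paper names a different version of STAR. The methods of the paper name a stranded poly(A) kit, whereas the sample labels name rRNA depletion, and the strand setting of RSEM is not stated.

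Expected counts were rounded and tested with edgeR 4.0.16 (TMM scaling, filterByExpr, glmQLFit and glmQLFTest, 1 fit of the 4 groups without covariates, Benjamini-Hochberg adjustment over 14008 genes) in R 4.3.3. Python 3.11.15 with numpy 2.4.6, pandas 2.3.3 and matplotlib 3.10.9 made tables and figures. The fitting code was tested on simulated counts. TPM was used as deposited to rank genes. Of the 55335 gene IDs, 54587 matched GENCODE M21 with their version and 55154 without it, and of the 40 antiviral genes 38 matched with it.

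Alternatives were DESeq2 1.42.0, DESeq2's size factors, limma 3.58.1 on log2(TPM + 1) or log2(TPM + 0.1), no filter or a filter of 10 counts in every library, only the 6 libraries compared, no fold cutoff, the replicate number as a block, each library left out in turn, and both deviating LPS libraries left out.

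Members and lists were chosen with earlier results of these data known. The members given in every library are, for each role, the one with the highest mean TPM, and the 3 that rose most and the 3 that fell most, of those past the threshold, in any of the comparisons. Pathway lists are represented by their 2 largest differences. Other lists hold interferon ligands, receptors, ISGF3, the TLR4 arm, other IRFs, feedback inhibitors, further interferon-stimulated genes, NF-kB targets and cell type markers. The precision at this depth is given by the SE of each fold change. Results that need items withheld for evaluation are not reported here.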

Additional observations from a re-analysis of the deposited data

Results flagged for a closer look

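Under the same LPS treatment, the response of 25 genes differed between the genotypes past the threshold, and all of these differences had the same direction. Of all genes tested, 8.7% had a larger and 8.75% a smaller response in KO cells past it. As log2 response in KO cells minus that in WT cells they were 1.22 for Pml, 1.21 for Oas2, 1.20 for Xaf1, 1.16 for Oas3, 1.04 for Oas1g, 0.99 for Rtp4, 0.98 for Ifit3b, 0.92 for Ifi47, 0.89 for Oas1a, 0.88 for Usp18, 0.88 for Rsad2, 0.81 for Ifit3, 0.81 for Mx2, 0.78 for Eif2ak2, 0.70 for Cmpk2, 0.70 for Helz2, 0.68 for Ifi35, 0.54 for Herc6, 0.50 for Sp100, 0.47 for Dhx58, 0.46 for Zbp1, 0.42 for Isg15, 0.37 for Oasl2, 0.35 for Mx1 and 0.31 for Parp12. Of these genes, Ifit3b, Mx2 and Isg15 were also higher in every KOL library than in any WTL library. With the replicate number as a block, Mx1 and Herc6 no longer passed. The cause was not tested.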

How the results depend on the processing

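The members that rose and fell after LPS, and those that rose in KO against WT, were the same in number under every alternative. In KOL against WTL, 3 members rose with edgeR, and 1 did with limma on log2(TPM + 1) and 1 with limma on log2(TPM + 0.1). Without a fold cutoff 5 rose and 21 fell (against 21.4% and 23.3% of all genes tested), where 3 and 5 had passed it (against 12.5% in each direction). With each library left out in turn, the number that rose in KOL against WTL ranged from 1 to 3 and the number that fell from 5 to 10.

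Members with an interaction below 0 past the threshold numbered 0 with edgeR, 2 with both deviating LPS libraries left out and 1 without a filter on low counts, and ranged from 0 to 1 with each library left out in turn. Members with an interaction above 0 past the threshold ranged from 20 to 26 in the same series.

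Values that changed sign were near 0 and had not passed. Oasl1 in KO against WT was -0.01 with DESeq2, -0.01 with DESeq2's size factors in edgeR, -0.12 with limma on log2(TPM + 1) and -0.12 with limma on log2(TPM + 0.1), and from -0.11 to 0.03 with single libraries left out, where -0.00 and -0.01 were without KO replicates 1 and 3. Its interaction was 0.02 and 0.03 with limma on log2(TPM + 1) and log2(TPM + 0.1), and from -0.11 to 0.07 with single libraries left out. Ptpn2 in KO against WT was -0.06 with limma on either scale and from -0.05 to 0.09 with single libraries left out. Ifi205 in KOL against WTL was 0.04 with both deviating LPS libraries left out and from -0.16 to 0.14 with single libraries left out.

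Single libraries also turned the sign of Ifit1 in KOL against WTL (from -0.18 to 0.06) and of Rsad2 in KOL against WTL (from -0.12 to 0.07). For the interaction, the range was -0.12 to 0.28 for Parp14, -0.21 to 0.02 for Phf11d, -0.30 to 0.04 for Ifnlr1 and -0.39 to 0.20 for Cxcl9.

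The replicate number as a block was tried although the labels give no shared mouse or day. Over the 14008 genes tested, deviations of libraries with the same number correlated at -0.286 to 0.112. Over the 9338 genes used for the spread of libraries, they correlated at -0.65 (WTL and KOL replicates 1) to 0.35 (WTL and KOL replicates 3). Whether the numbers pair the samples is not settled by these values. With the block, 40 members rose after LPS in each genotype, 2 rose and 29 fell in KO against WT, 3 rose and 5 fell in KOL against WTL, and 23 had an interaction above 0 past the threshold, where 25 had it without the block. The members that no longer passed were Mx1 and Herc6, and the block changed no other call of a member.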
